A study of Mus musculus with 18 samples.

Results

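The step from naive to memory-phenotype CD8 T cells was compared between wild-type and Dock2-deficient mice. The quantity described is the interaction, that is, the memory minus naive difference in Dock2-deficient mice less the memory minus naive difference in wild-type mice, on the scale log2(value + 1). A negative interaction means that memory stood less far above naive, or further below it, in Dock2-deficient mice, and a positive interaction the reverse. All 18 of the 18 RNA sequencing libraries entered the comparison, 4 for each cell state in wild type and 5 for each in Dock2-deficient mice. Wild-type libraries came from C57BL/6J mice. Dock2-deficient libraries came from mice with 2 copies of the Dock2 Hsd allele, whose strain field also reads C57BL/6J while their descriptions carry the name C57L6NHsd, so genotype and substrain cannot be told apart. Naive libraries are marked CD44lo and memory libraries CD44hi, no treatment was given, and age and the organ of origin are not given in the sources used here. Whether replicates were separate animals is not stated; p-values therefore reflect only how far these libraries differ within a group, which can be technical.

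DOCK2 is a guanine nucleotide exchange factor of blood cells that activates the small GTPase Rac and couples antigen and chemokine receptors to the actin cytoskeleton. Memory-phenotype CD8 T cells carry high surface CD44 and express the transcription factors T-bet and Eomes, the IL-2 and IL-15 receptor chain encoded by Il2rb, inflammatory chemokine receptors and receptors first described on natural killer cells. Naive cells lack these and keep homing and quiescence genes. In bulk RNA, fewer cells of a type and less RNA per cell cannot be told apart.

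Values are normalized expected counts, that is, estimated reads per gene scaled between libraries by the authors. Depth read back from the values was 2215987 to 8257768 expected reads a library, of which the ribosomal RNA gene Rn18s-rs5 took 37.0% to 69.4%. On the second principal component wild-type memory library 4 was far from the rest, and memory library 5 of the Dock2-deficient mice had the most extreme score on the first. By Xist and Y-linked genes, 8 of 8 wild-type libraries read as female and 8 of 10 Dock2-deficient libraries as male. The 10 CD8 T cell markers were all above the filter, with summed values of 9357 to 12450 and 8367 to 10180 in wild-type naive and memory libraries, against 10170 to 14570 and 9209 to 19230 in Dock2-deficient mice. B cell markers included Ighm at 323 to 1070 in every library, and Igkc reached 550 in a Dock2-deficient naive library. Of 11 markers of CD4 and regulatory T cells, 4 passed the filter and 3 lay below 0 (median -1.17), with summed values of 86.6 to 118 and 296.8 to 466 in wild-type naive and memory libraries and 88.3 to 250 and 223 to 460 in Dock2-deficient ones. Of these, Cxcr5, a chemokine receptor gene, reached 318, Ikzf2 78.1 and Cd4 7.47. The 14 myeloid markers summed to 155 to 345 in every library, with Itgax at up to 68.0 and Csf1r at up to 1.77. The 8 erythroid and platelet markers summed to at most 8.38 in wild type but reached 340.4 in naive and 54.3 in memory libraries of Dock2-deficient mice, with Hba-a2 at up to 112 and Hbb-bs at up to 106. The part of other cell types in the results was not tested.

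Dock2 served as the label check. In wild type its mean was 388 ± 101 in naive and 537 ± 206 in memory libraries (SD, n = 4 each). In Dock2-deficient mice it was 243 ± 88.5 in naive and 184 ± 83.4 in memory libraries (SD, n = 5 each). The interaction of -0.93 ± 0.51 (SE) did not pass (limma, Benjamini-Hochberg adjusted p = 0.819). The naive libraries of the genotypes overlapped (288 to 514 in wild type, 171 to 373 in Dock2-deficient mice) and the memory libraries did not (399.75 to 844 against 61.0 to 279.6). The protein was not measured.

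Of 9437 genes tested, 3 (0.0318%) passed limma's test of the interaction at an adjusted p under 0.05. Tbx21 and Trdc were lower (0.0212%) and Tmie was higher (0.0106%). At an unadjusted p under 0.05 there were 492 genes (5.21%), 287 lower (3.04%) and 205 higher (2.17%), a share close to the 5% that this threshold allows where nothing differs. The interaction was small against its error for most genes: its median size was 0.40 on the log2 scale and the median SE 0.52. The median over all genes was 0.01, and 49.5% lay below 0.

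**Figure D1:**
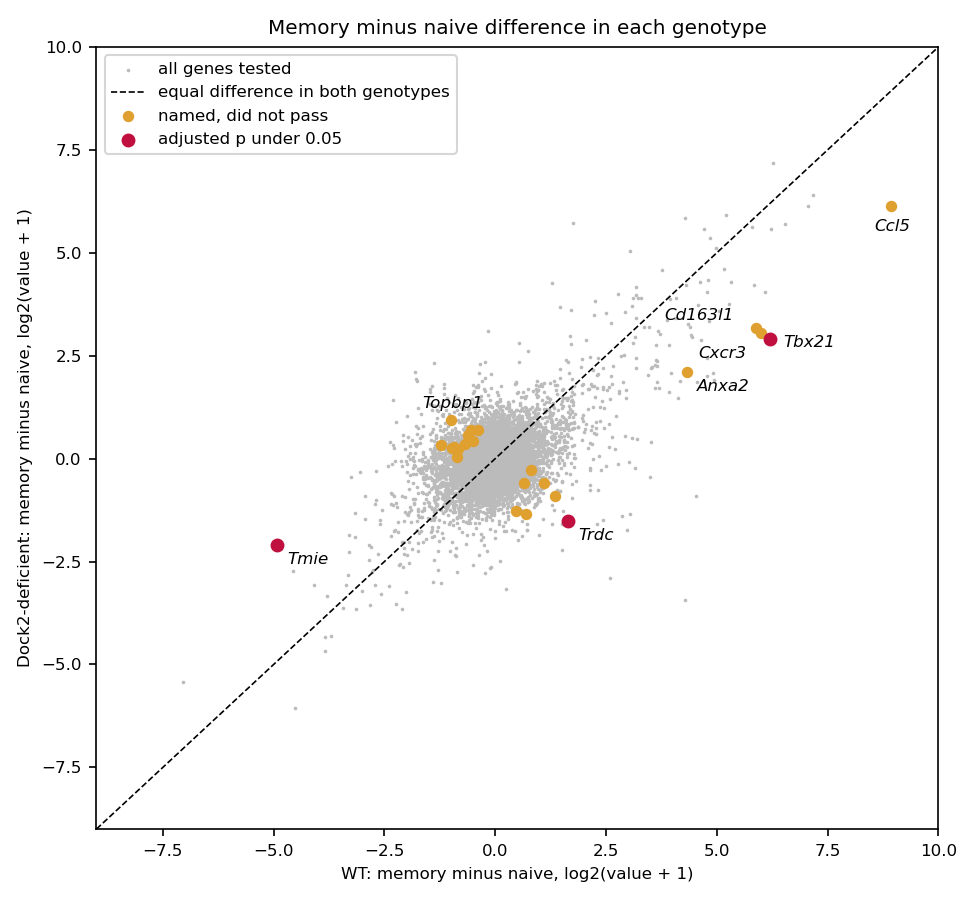
Memory minus naive difference in wild type (horizontal axis) and in Dock2-deficient mice (vertical axis) on the log2(value + 1) scale, 1 point per tested gene; the dashed line marks equal differences. Tbx21 and Trdc lie below the line and Tmie above it (red), while the other named genes (orange) did not pass.

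Tbx21, which encodes the effector and memory transcription factor T-bet in T cells, separated memory from naive libraries by less in Dock2-deficient than in wild-type mice. The gene lies on chromosome 11, 97098071 to 97115331, minus strand (mm10). In wild type its value was 18.2, 5.42, 2.79 and 3.39 across naive libraries, against 379.7, 569.9, 438.3 and 647.7 across memory libraries. In Dock2-deficient mice the naive libraries stood at 42.7, 81.5, 28.7, 42.5 and 50.8, and the memory libraries at 433, 331, 271, 517 and 292. Every naive library lay below every memory library in both genotypes, every Dock2-deficient naive library lay above every wild-type naive one, and the memory libraries of the genotypes overlapped. The memory minus naive difference was 6.21 in wild type and 2.92 in Dock2-deficient mice on the log2 scale. The interaction was thus -3.29 ± 0.54 (SE; limma, Benjamini-Hochberg adjusted p = 0.0287), with a 95% half-width of 1.11. Its size depends in part on low wild-type naive values: with 10 in place of 1 added before the logarithm it was -2.25 (limma, adjusted p = 0.0261). With 1 added the interaction stayed between -3.80 and -3.02 when any of the 18 libraries was left out. The call was kept without wild-type naive library 1, wild-type memory library 1, Dock2-deficient naive library 1 or 3 or Dock2-deficient memory library 4, and was lost without any of the other 13 (limma, adjusted p = 0.0505 to 0.0938).

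Trdc, the gene segment for the constant region of the delta receptor chain, had differences of opposite sign in the genotypes. It lies on chromosome 14, 54142851 to 54148868, plus strand. In wild type its value was 2.43, 3.63, 4.19 and 5.65 across naive and 8.32, 18.9, 14.6 and 16.6 across memory libraries. In Dock2-deficient mice it was 42.0, 34.0, 19.5, 45.7 and 22.9 across naive, and 10.7, 13.6, 6.89, 11.1 and 9.79 across memory libraries. Memory libraries thus all lay above naive ones in wild type and all below them in Dock2-deficient mice, and the Dock2-deficient naive libraries were the highest of the 4 groups. The differences were 1.63 and -1.52, and the interaction was -3.16 ± 0.52 (SE; limma, Benjamini-Hochberg adjusted p = 0.0287). Its size depends in part on low values: with 10 in place of 1 added before the logarithm it was -1.83 (limma, adjusted p = 0.0261). Left-out libraries gave -3.39 to -2.99, and the call was kept without wild-type memory library 1 or Dock2-deficient naive library 3 and lost without any of the other 16 (limma, adjusted p = 0.0505 to 0.107).

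Tmie, a transmembrane gene known for its part in hair cell mechanotransduction in the inner ear, was the gene that was higher in the interaction. It lies on chromosome 9, 110865711 to 110880113, minus strand. In wild type its value was 42.4, 54.2, 39.1 and 44.0 across naive libraries and 0, 1.26, 1.29 and 0 across memory libraries. In Dock2-deficient mice the naive libraries stood at 38.2, 56.4, 53.6, 48.9 and 41.8, and the memory libraries at 10.65, 12.35, 15.5, 7.66 and 7.08. The naive libraries of the genotypes overlapped, and every Dock2-deficient memory library lay above every wild-type memory one. The memory minus naive difference was -4.92 in wild type and -2.10 in Dock2-deficient mice, an interaction of 2.82 ± 0.50 (SE; limma, Benjamini-Hochberg adjusted p = 0.0495). The size depends on values near 0 in wild-type memory: with 10 in place of 1 added before the logarithm it was 0.87 (limma, adjusted p = 0.817). Left-out libraries gave 2.62 to 3.02, and the call was kept without wild-type memory library 2 and lost without any of the other 17 (limma, adjusted p = 0.0505 to 0.141).

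**Figure D2:**
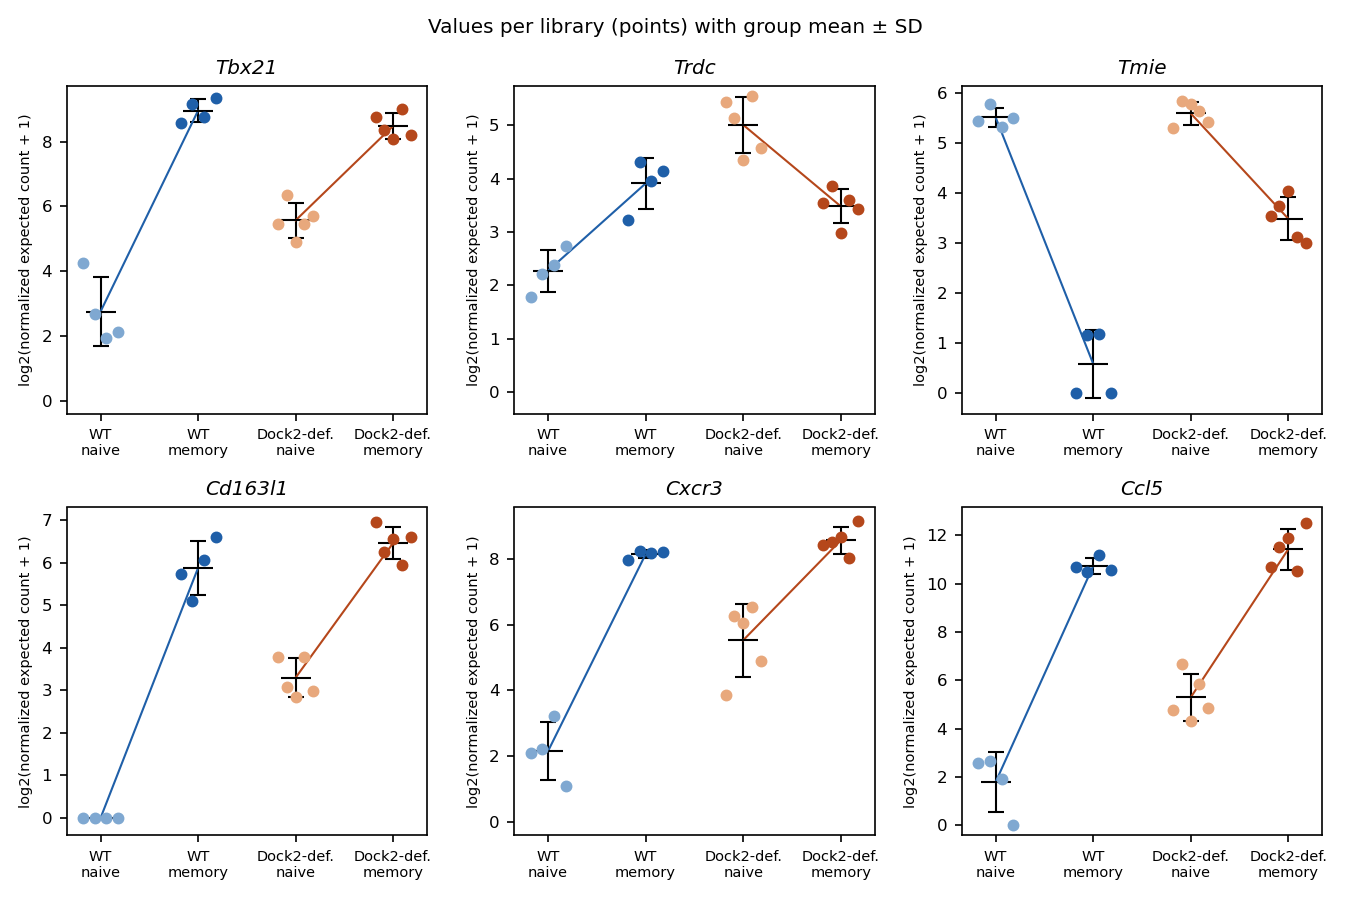
Values per library on the log2(value + 1) scale for Tbx21, Trdc, Tmie, Cd163l1, Cxcr3 and Ccl5 in the 4 groups, with group mean ± SD and lines joining naive to memory means. The slopes differ between genotypes, and for Trdc they have opposite signs.

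Settings that concern all libraries bear on the 3 calls as well. Among settings other than left-out single libraries, Tbx21 passed in 6 of 12, Trdc in 6 of 11 and Tmie in 4 of 11. With voom weights none of them passed (limma, adjusted p = 0.72 for Tbx21 and 0.818 for Trdc and for Tmie). With no filter on low values none passed either (limma, adjusted p = 0.0688 for Tbx21 and for Tmie, 0.0502 for Trdc). Leaving out the 2 libraries that lay apart together gave no call and 337 genes at an unadjusted p under 0.05. With a term for sex and for sex by memory state, in which the interaction rests on the single female Dock2-deficient library of each state, Tbx21 was -2.90 (limma, adjusted p = 0.797), Trdc -3.52 (adjusted p = 0.435) and Tmie 3.17 (adjusted p = 0.543). The sign of each interaction was kept in all 30 alternatives tried for Tbx21 and all 29 for Trdc and Tmie.

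**Figure D3:**
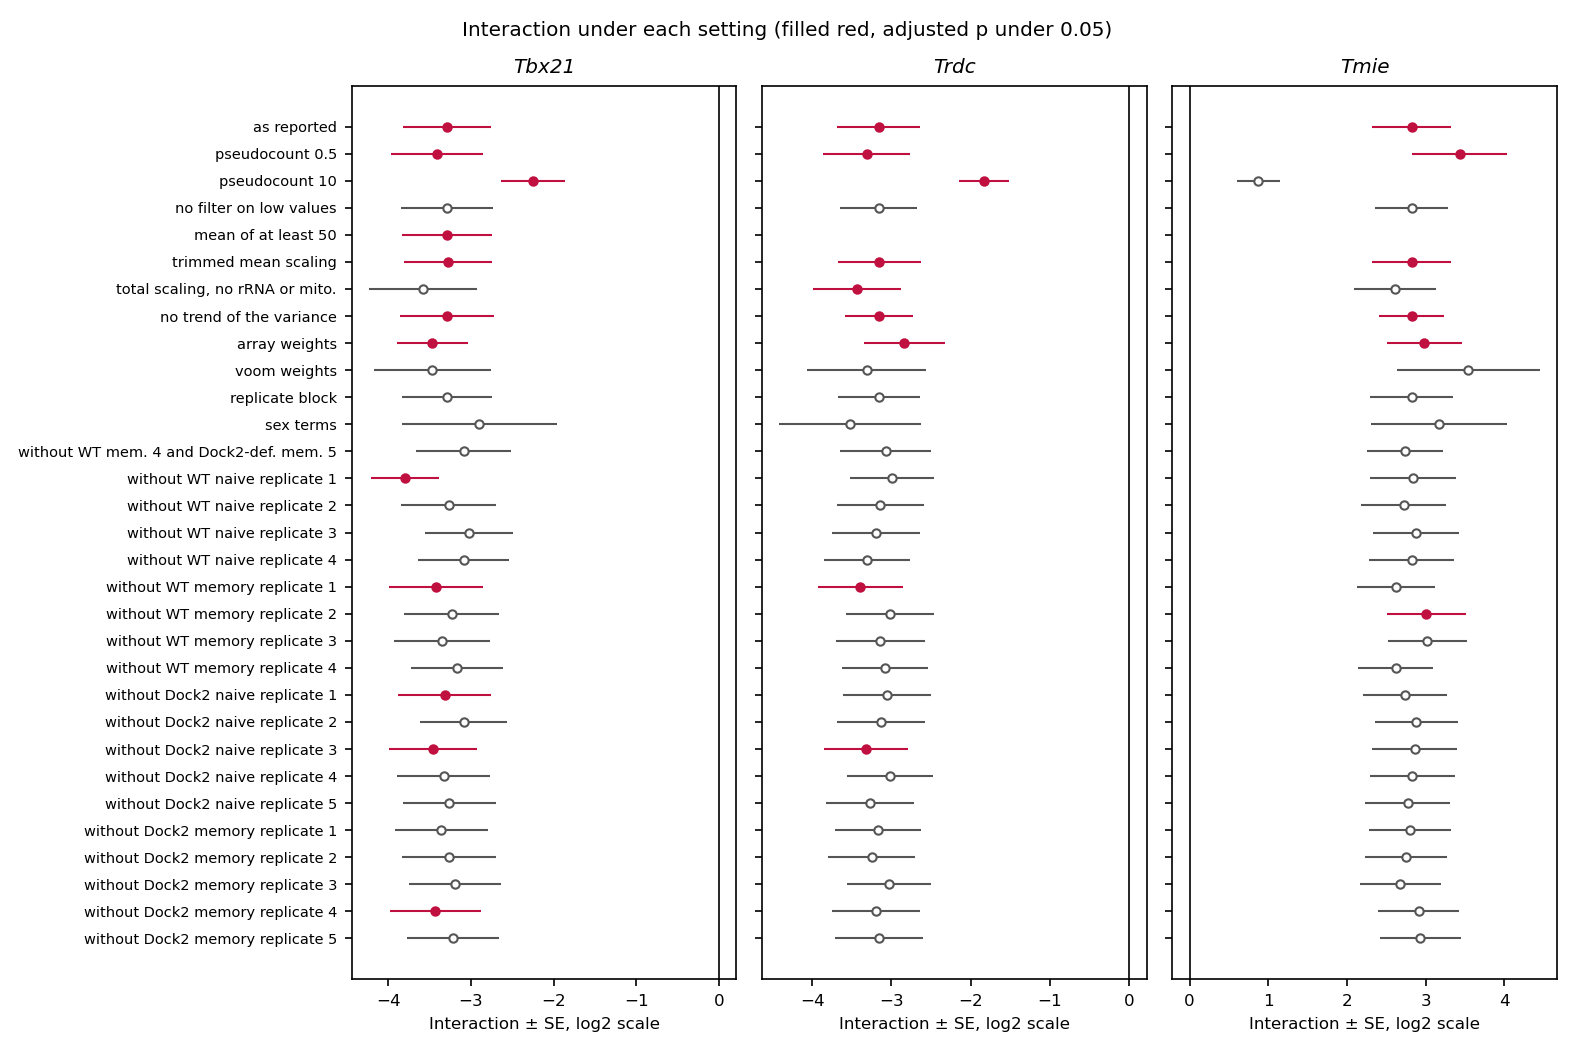
Interaction ± SE on the log2 scale for Tbx21, Trdc and Tmie under each setting and with each library left out; red filled points have an adjusted p under 0.05. The estimates keep their sign throughout, and most of the alternatives did not pass the threshold.

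The memory minus naive differences of the 492 genes at an unadjusted p under 0.05 are given as a description, since choosing genes by a large interaction favours differences of opposite sign. Of the 287 lower genes, 222 (77.4%) were above 0 in wild type and below 0 in Dock2-deficient mice, 51 (17.8%) were above 0 in both and 14 (4.88%) below 0 in both. Among the 205 higher genes, 167 (81.5%) were below 0 in wild type and above 0 in Dock2-deficient mice, 23 (11.2%) were below 0 in both and 15 (7.32%) above 0 in both. Over all genes tested 20.6% were above 0 in wild type and below 0 in Dock2-deficient mice, and 22% the reverse. Tbx21 belongs to the genes above 0 in both, Trdc to those of opposite sign and Tmie to those below 0 in both.

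Cd163l1 and Cxcr3 came next among the lower genes and did not pass. Cd163l1, a scavenger receptor gene found in gamma delta T cells (chromosome 7, 140218267 to 140231145), was at 0 throughout the 4 naive and at 52.2, 33.4, 65.7 and 96.2 in the memory libraries of wild-type mice. In Dock2-deficient mice it was 12.7, 7.47, 6.14, 12.8 and 6.97 across naive, and 122, 75.3, 92.8, 60.4 and 96.4 across memory libraries. The interaction was -2.71 ± 0.49 (SE; limma, Benjamini-Hochberg adjusted p = 0.0507), and its size depends on the naive libraries at 0: with 10 added before the logarithm it was -0.42 and with 0.5 it was -3.63. It passed in 5 of 29 alternatives, which were 0.5 added before the logarithm (limma, adjusted p = 0.0105), no trend of the variance (0.0132), array weights (0.02), scaling to the total (0.0287) and leaving out wild-type memory library 2 (0.042). Cxcr3 encodes a receptor for interferon-induced chemokines (chromosome X, 101731535 to 101734269). It averaged 4.11 ± 3.06 in naive and 284 ± 23.5 in memory libraries of wild type (SD, n = 4 each), against 55.3 ± 33.0 and 391 ± 115 in Dock2-deficient mice (SD, n = 5 each). Its interaction was -2.95 ± 0.63 (limma, adjusted p = 0.221), which passed without Dock2-deficient naive library 1 (adjusted p = 0.0347) and under no other alternative tried. In that library Cxcr3 was 13.6, against 28.9 to 92.2 in the other 4.

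The sign for Cxcr3, Cd163l1 and Ccl5 turns with the scale. On the linear scale, with no test, the difference of differences of group means was 56.4 for Cxcr3, 18.4 for Cd163l1 and 1375 for Ccl5, a chemokine gene, whose log2 interaction was -2.80 ± 0.74 (limma, adjusted p = 0.626). Mean Ccl5 was 3.29 (naive) and 1733 (memory) in wild type, against 46.4 and 3150.5 in Dock2-deficient mice. Each of these 3 genes had higher means in Dock2-deficient than in wild-type libraries in both states, with the larger difference in naive cells on the log2 scale and in memory cells on the linear scale. For Tbx21 (-182), Trdc (-33.0) and Tmie (7.17) the linear difference had the sign of the log2 one. Over all genes the signs differed for 873 (9.25%), and among the 492 genes for 6 (1.22%).

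The other 7 of the 12 lower genes that the naming rule gives did not pass. Anxa2, a calcium-dependent membrane-binding protein, averaged 7.07 and 154 in wild-type naive and memory and 28.1 and 118 in Dock2-deficient naive and memory libraries (-2.23; limma, adjusted p = 0.280). Cd7, a surface receptor of T cells and natural killer cells, was 106, 166, 192 and 128 in the same order (-1.25; limma, adjusted p = 0.532). Both had higher means in Dock2-deficient than in wild-type naive libraries and lower means in Dock2-deficient than in wild-type memory libraries. Wdr81, an endosomal trafficking gene, had an interaction of -2.25, with 63.8 to 239.5 in wild-type memory and 13.3 to 52.8 in Dock2-deficient memory libraries, which did not overlap. Usp42, a deubiquitinase gene (-1.74), Frs2, an adaptor of growth factor receptors (-2.03), Phf21a, a subunit of a histone demethylase complex (-1.69), and Zranb2, a splicing factor gene (-1.07), had memory means above naive means in wild type and below them in Dock2-deficient mice.

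The 11 named higher genes other than Tmie did not pass, each with an adjusted p of 0.819 from limma, and had interactions between 0.91 and 1.93. All 11 had lower log2 means in memory than in naive libraries in wild type and higher ones in Dock2-deficient mice. Topbp1, a scaffold of the DNA damage checkpoint, was 65.6, 53.3, 82.1 and 46.2 in wild-type naive and 51.2, 19.999, 58.1 and 12.8 in memory libraries of that genotype. In Dock2-deficient mice it was 37.0, 19.8, 31.2, 26.1 and 49.4 across naive, and 75.2, 50.015, 93.0, 56.8 and 40.8 across memory libraries, so that the naive and memory ranges overlapped in both genotypes (interaction 1.93 ± 0.54, SE). Exosc9, a subunit of the RNA exosome, was 12.2 to 24.2 in wild-type memory and 40.0 to 52.9 in Dock2-deficient memory libraries, which did not overlap (1.23 ± 0.35). Ets2, a transcription factor of the ETS family, had an interaction of 1.54, and Miip, a regulator of cell migration, of 1.02. The vesicle transport genes Snap23 (1.25), Vps4a (1.20), Vps11 (1.06) and Copb1 (0.92) had similar values, as did Ltv1, a factor of small ribosomal subunit assembly (1.18), Asb6, a substrate receptor gene of ubiquitin ligases (0.91), and Ndufc1, a subunit of respiratory complex I (1.08).

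Memory and effector-memory genes had negative interactions more often than positive ones. Of 36 tested members (41 listed), 24 lay below 0, and the median was -0.49 beside 0.01 over all genes. Tbx21 passed, and no member passed as higher. At an unadjusted p under 0.05, 10 members (27.8%) were lower, beside 3.04% of all genes, and 1 was higher. The lower ones were Tbx21, Cxcr3, Ccl5, Anxa2, Il2rb, Il18rap, S100a4, S100a6, Lgals1 and Chst11, and the higher one was Ctla2b. The list was drawn up with results of these libraries known, so its count is not independent evidence of a direction. Il2rb averaged 310 and 3800 in wild-type naive and memory libraries, against 456 and 2990 in Dock2-deficient mice (-0.86; limma, adjusted p = 0.819). Il18rap, an IL-18 receptor subunit gene, averaged 5.35, 222, 10.6 and 184 in the same order (-2.06), Lgals1, which encodes galectin-1, 33.5, 116, 117 and 221 (-0.93), and Chst11, a chondroitin sulfotransferase gene, 0.275, 29.7, 7.34 and 33.2 (-2.70). Each of these 4 genes had the higher naive mean in Dock2-deficient mice.

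The median over the same 36 memory genes within each library restates these values per library and is not separate evidence. On the log2(value + 1) scale it was 3.36 to 3.90 in wild-type naive, 4.10 to 5.47 in Dock2-deficient naive, 6.87 to 7.12 in wild-type memory and 6.59 to 7.62 in Dock2-deficient memory libraries. The naive libraries of the genotypes did not overlap and the memory libraries did. The median interaction was -0.66 to -0.33 when any library was left out and -0.29 without both libraries that lay apart (wild-type memory 4, Dock2-deficient memory 5), with 21 of 36 members below 0.

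Among natural killer receptors on T cells the members went both ways. Of 16 tested members (21 listed) 11 lay below 0, with a median of -0.73, and none passed. At an unadjusted p under 0.05, Klrc2, Cd160 and Slamf7 were lower and Klrd1, Klra4 and Klra8 higher. Each direction held 18.75% of the list, beside 3.04% of all genes lower and 2.17% higher. Klra8, which encodes the activating receptor Ly49H, was at 0 in each of the 9 naive libraries. Memory libraries stood at 4.81, 3.55, 3.94 and 0 in wild type and at 79.0, 22.6, 55.3, 65.3 and 60.02 in Dock2-deficient mice, without overlap. Its interaction was 3.98 ± 0.89 (SE; limma, adjusted p = 0.279) and passed with 10 added before the logarithm (2.29, adjusted p = 0.0104) and with no trend of the variance (adjusted p = 0.0116). Klra4, another Ly49 gene, was also listed at 0 in naive libraries and averaged 7.68 in wild-type and 33.7 in Dock2-deficient memory libraries (1.99; limma, adjusted p = 0.819). Reads of Klra genes are shared out between near-identical copies as estimates, so these 2 values are uncertain. Klrc2, a receptor gene of the NKG2 family, averaged 41.9 ± 13.3 in wild-type memory and 12.6 ± 9.74 in Dock2-deficient memory libraries (-2.76; limma, adjusted p = 0.819). Cd160, an immunoglobulin-family receptor gene, averaged 118 ± 6.34 and 48.4 ± 25.1 there (-1.37; limma, adjusted p = 0.819). Of 12 markers of natural killer and innate lymphocytes, 4 passed the filter and all 4 lay below 0 (median -1.21). Their summed level over the whole list was 6.99 to 18.1 and 174 to 214 in wild-type naive and memory libraries, and 11.8 to 74.7 and 108 to 156 in Dock2-deficient mice. In memory libraries Klrb1c, which encodes NK1.1, was 15.7 to 27.1 in wild type and 0 to 12.3 in Dock2-deficient mice, without overlap. Eomes, which memory-phenotype CD8 T cells express, is a member and was 66.4 to 96.3 in wild-type and 57.5 to 79.2 in Dock2-deficient memory libraries. In naive libraries it was 5.59 to 15.4 in wild type and 4.55 to 60.5 in Dock2-deficient mice. Of the other members Klri2 reached 55.1, Fcer1g 41.1 and Klre1 34.0, each in wild-type memory, and Tyrobp, Ncr1 and Klrb1f reached 8.74, 5.80 and 3.78. The part of natural killer or innate lymphocytes in these values was not tested.

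Among cytotoxic and effector molecules 7 of 17 tested members lay below 0 (median 0.08), which became 11 of 17 (median -0.14) without both libraries that lay apart. Prf1, which encodes perforin, was higher (0.78) and Ccl5 and Tnfsf10, which encodes the death ligand TRAIL, were lower (-2.80 and -1.44) at an unadjusted p under 0.05. These were 5.88% of the list higher and 11.8% lower, beside 2.17% and 3.04% of all genes. No member passed. Gzmm, a granzyme gene, had the highest value (0.93), at memory means of 109 in wild type and 303.5 in Dock2-deficient mice. Naive and quiescence genes had a median of 0.03, with 10 of 25 below 0. Of that list 8% were higher at this threshold and 0% lower, beside 2.17% and 3.04% of all genes. Tmie passed, and Ccr9, the gut homing receptor gene, was higher at an unadjusted p under 0.05 (1.60; limma, adjusted p = 0.819), with memory means of 2.35 in wild type and 6.70 in Dock2-deficient mice. Itgae, which encodes the integrin chain CD103, had the lowest value of the list (-1.53; limma, adjusted p = 0.819).

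The gamma chain constant segments had interactions of the same sign as Trdc. In the marker list of gamma delta and NKT cells, 12 of 16 listed genes were in the table, 6 passed the filter and all 6 lay below 0, with a median of -2.94 that was -0.97, with 5 of 6 below 0, when 10 was added before the logarithm. Trdc passed. Tcrg-C4 (-4.25; limma, adjusted p = 0.221) and Tcrg-C2 (-3.39; limma, adjusted p = 0.150) did not. Tcrg-C2, named after its value was seen, averaged 2.41, 25.9, 12.1 and 9 in the order wild-type naive and memory, Dock2-deficient naive and memory, and Tcrg-C4 averaged 1.20, 12.9, 10.03 and 4.10. Both thus had higher means in wild-type memory and Dock2-deficient naive libraries than in the other groups. The summed value of the whole list was 103 to 210, 181 to 308.6, 78.9 to 245 and 202 to 264 in these groups. That sum includes Cxcr6 at means of 161, 87.6, 75.8 and 25.4, Cd163l1 at 0, 61.9, 9.23 and 89.5 and 5830411N06Rik at 0, 23.6, 12 and 107. Unlike Trdc, Cd163l1 and 5830411N06Rik had their highest means in Dock2-deficient memory libraries, and Cxcr6 had its highest in wild-type naive libraries. The defining transcription factor and kinase genes Sox13, Zbtb16, Blk and Maf reached at most 2.20, 1.66, 0.909 and 1.81 in any library. The part that a varying share of gamma delta T cells has in the Trdc result was not tested.

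Genes induced by T cell receptor signalling had 16 of 20 tested members below 0 (80%, beside 49.5% of all genes) and a median of -0.45. None passed. Nr4a3, Egr2 and Izumo1r were lower at an unadjusted p under 0.05 (15%, beside 3.04% of all genes), with none higher. Nr4a3, an orphan nuclear receptor gene, averaged 17.5, 18.1 and 18.8 in wild-type naive, wild-type memory and Dock2-deficient naive libraries, against 4.48 ± 2.95 (SD, n = 5) in Dock2-deficient memory (-2.12; limma, adjusted p = 0.819), but with sex terms the value was 0.04. Egr2, a zinc finger transcription factor gene, averaged 15.3, 9.01, 24.3 and 5.15 (-1.41), and Izumo1r, which encodes folate receptor 4, 31.1, 31.7, 25.8 and 8.06 (-1.59). All 3 had their lowest mean in Dock2-deficient memory libraries. For the list, 13 of 20 lay below 0 with sex terms (median -0.21), and 7 of 9 among genes with a mean of at least 50 (median -0.16). Within Dock2-deficient memory the list median was 4.95 and 4.74 in libraries 4 and 5, against 5.42 to 6.09 in the other 3. Immediate early and AP-1 stress genes were also lowest in those 2 libraries, with list medians of 5.90 and 6.20 against 7.90 to 8.20. Among Dock2-deficient naive libraries their median was 5.82 and 6.47 in libraries 4 and 5, against 7.58 to 7.68. The part of these libraries and of immediate early genes in the list's result was not tested.

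Interferon-stimulated genes had 40 of 58 tested members below 0 and a median of -0.35. None passed. Zbp1, a nucleic acid sensor gene (-1.06), Parp14 (-1.19) and the guanylate-binding protein genes Gbp5 (-2.50) and Gbp7 (-0.66) were lower at an unadjusted p under 0.05. These genes are 6.90% of the list, beside 3.04% of all genes. Zbp1 averaged 59.9 and 45.5 in wild-type naive and memory libraries and 90.5 and 34.9 in the Dock2-deficient ones. The list median within a library overlapped between all 4 groups. Without the libraries that lay apart the median interaction was -0.22. Among cytokine receptors, STATs and SOCS genes, Il6st (-0.87) and Tgfbr2 (-0.92), which encode a shared chain of IL-6 family receptors and a TGF-beta receptor, were lower beside Il2rb and Il18rap at an unadjusted p under 0.05, with 24 of 42 below 0. These 4 genes were 9.52% of the list, beside 3.04% of all genes.

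**Figure D4:**
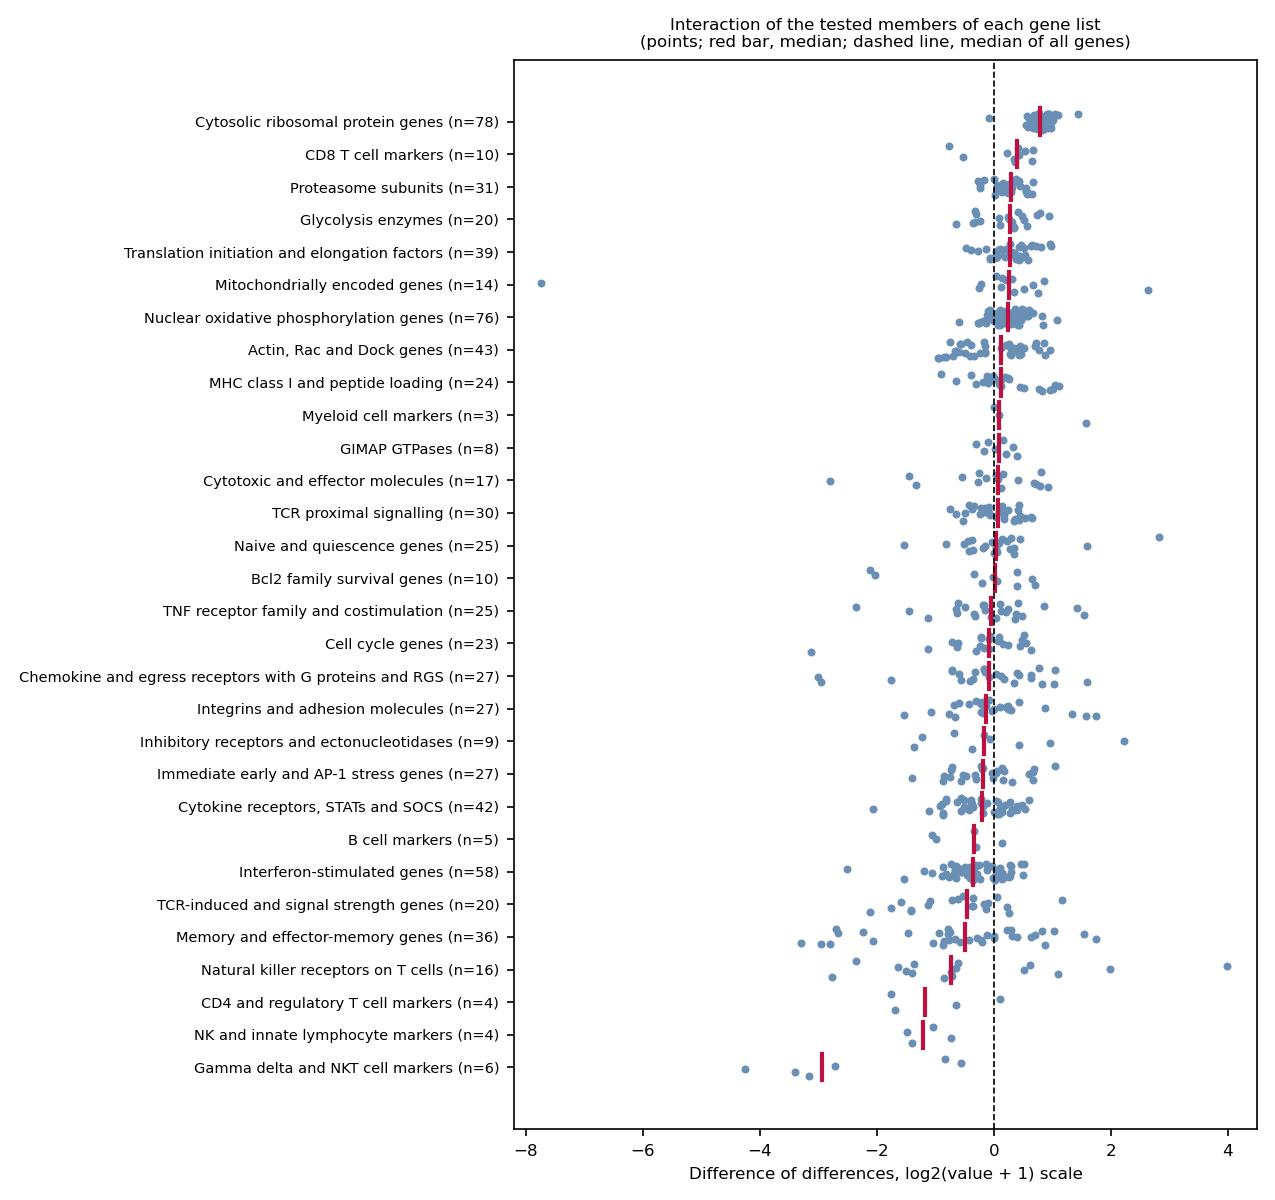
Interaction of each tested member (points) of the gene lists with at least 3 tested members, sex-linked genes left out, on the log2 scale; red bars mark list medians and the dashed line the median of all genes. Ribosomal protein genes lie closely together at a median of 0.80. Memory and natural killer receptor lists spread widely on both sides of 0 with medians below it, while all 6 gamma delta and NKT cell markers lie below 0.

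Ribosomal protein genes stood together on the other side. Of 78 tested members 77 lay above 0, and the median was 0.80. None passed, and Rpl12 (0.69) and Fau (1.44) were higher at an unadjusted p under 0.05 (2.56%, beside 2.17% of all genes). The median over the 78 genes within a library was 10.34 to 11.73 in wild-type naive, 10.60 to 11.26 in wild-type memory, 10.75 to 11.47 in Dock2-deficient naive and 11.14 to 12.60 in Dock2-deficient memory libraries on the log2(value + 1) scale. All groups overlapped, and within Dock2-deficient memory the SD between libraries was 0.65. Library 5, which lay apart on the first principal component, had the highest median (12.60), followed by library 3 (12.31). In these 2 libraries Rn18s-rs5 took the smallest shares of all 18, 37.0% and 48.6%, and the part of that share in the result was not tested. The median interaction was 0.51 without that library and wild-type memory library 4, and 0.36 with sex terms. Scaled to the total without ribosomal RNA and mitochondrial genes it was 0.51, at a median of -0.26 over all genes. The 78 members share their libraries and are not independent.

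**Figure D5:**
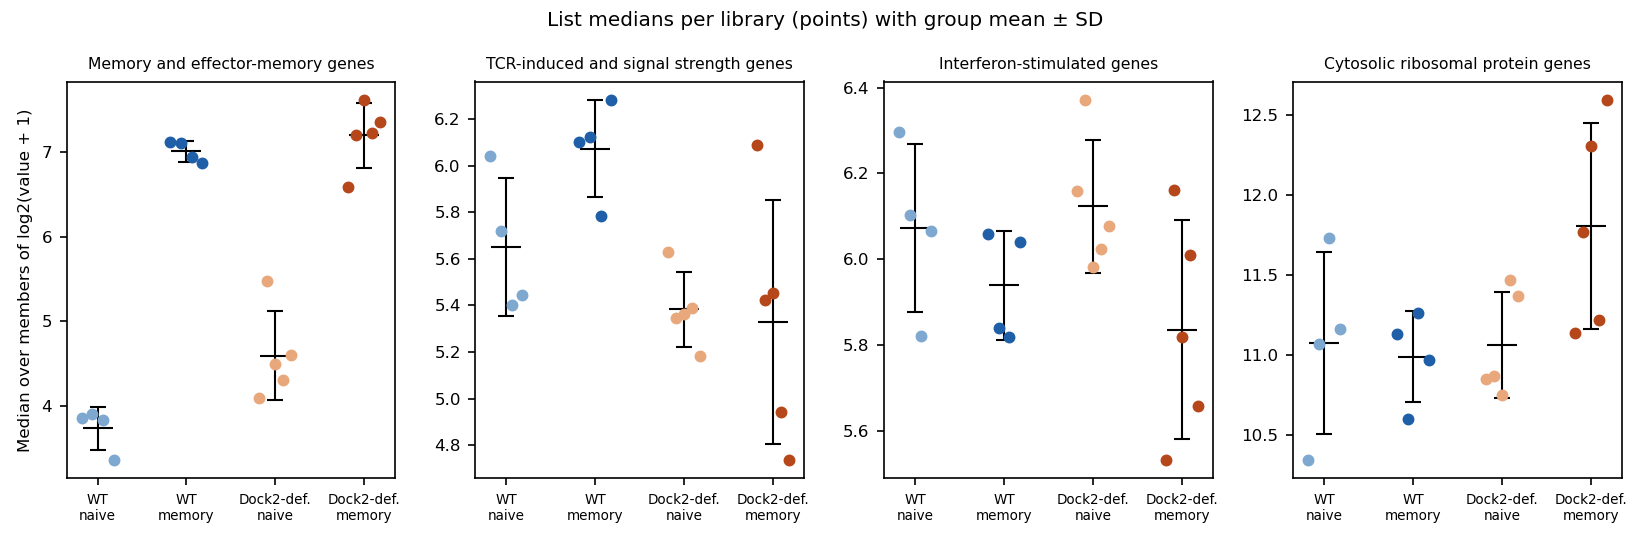
Median of log2(value + 1) over the members of 4 gene lists in each library, with group mean ± SD; the vertical axes differ between panels and do not start at 0. Medians of memory genes, a list drawn up with results of these libraries known, did not overlap between the naive libraries of the genotypes. Those of ribosomal protein genes are spread over 11.14 to 12.60 in Dock2-deficient memory.

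Other metabolic lists had smaller medians that were close to 0 or below it under scaling to the total. Under that scaling the median of all genes was -0.26. Nuclear oxidative phosphorylation genes had a median of 0.25 with 13 of 76 below 0, which became -0.04 with 40 below 0 under scaling to the total, 0.22 above the median of all genes there. Proteasome subunits had 0.29 (0.00438 under scaling to the total), translation factors 0.28 (-0.00632) and glycolysis enzymes 0.28 (-0.00263). Relative to the median of all genes these lists stood, in that order, at 0.265, 0.254 and 0.258 under that scaling. Without that scaling they stood at 0.279, 0.265 and 0.272. None of their members passed, and Ndufc1, Uqcr10 and Psmd6 were higher at an unadjusted p under 0.05. These were 2.63% of oxidative phosphorylation genes and 3.23% of proteasome subunits, beside 2.17% of all genes.

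Genes closest to the known role of DOCK2 showed no call, where 0.0318% of all genes tested were called. At an unadjusted p under 0.05, 2.33% of actin, Rac and Dock genes were higher and 0% lower, beside 2.17% and 3.04% of all genes. Of 43 tested actin, Rac and Dock genes 21 lay below 0 (median 0.13), which became 30 of 43 (median -0.20) with sex terms, and Rhoa, which encodes a small GTPase of the actin cytoskeleton, was the member at an unadjusted p under 0.05 (0.88; limma, adjusted p = 0.819). Dock8, a related exchange factor gene, had the lowest value (-0.95) and Actb, which encodes beta-actin, the highest (0.96). Of 30 genes of proximal T cell receptor signalling 14 lay below 0 (median 0.07), with the kinase gene Fyn higher (0.65) and the adaptor gene Sla lower (-0.74) at an unadjusted p under 0.05. That is 3.33% of the list in each direction, near the shares of all genes (2.17% higher, 3.04% lower). Chemokine receptors and their G proteins had 14 of 27 below 0. At an unadjusted p under 0.05, Cxcr3, Cxcr5, Gpr15 and Rgs3 were lower (14.8% of the list, beside 3.04% of all genes). Ccr9 and Gnai3 were higher at that threshold (7.41%, beside 2.17% of all genes). Gpr15, a homing receptor gene listed at 0 in wild-type naive libraries, was lowest (-3.01; limma, adjusted p = 0.310). No member of the integrin and adhesion list or of the immediate early and AP-1 stress list (27 tested in each) reached an unadjusted p under 0.05.

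Cell cycle genes had 13 of 23 below 0 (median -0.07) and no call. Mki67 and Mcm4 were lower at an unadjusted p under 0.05 (8.70% of the list, beside 3.04% of all genes). Mki67, the proliferation marker, was 5.51, 0, 1.40 and 0 in wild-type naive and 14.9, 13.9, 26.5 and 40.2 in wild-type memory libraries. In Dock2-deficient mice it was 8.18, 14.9, 0.512, 2.41 and 0.996 in naive and 7.10, 2.47, 5.16, 8.51 and 2.65 in memory libraries. Wild-type memory libraries lay above all Dock2-deficient memory libraries, and the Dock2-deficient states overlapped (-3.12 ± 1.04, SE; limma, adjusted p = 0.819). Mcm4, a subunit of the replicative helicase, averaged 75.3 and 150 in wild-type naive and memory, against 97.4 and 77.5 in Dock2-deficient mice (-1.12). Of the Bcl2 family, the death-promoting genes Bak1 (-2.03) and Pmaip1 (-2.11) were lower at an unadjusted p under 0.05 (20%, beside 3.04% of all genes). In that family 5 of 10 members lay below 0.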

How the data were processed

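Per the labels' protocols, Smartseq2, which keeps no strand information, was applied to RNA from a Qiagen kit. Genome build mm10, bcl2fastq, FastQC and RSEM are named in the submitters' processing notes, while versions, aligner and annotation are not given in the sources used here. For 46983 genes, the authors deposited a normalized signal, RSEM expected counts scaled between libraries. Between 59.5% and 69.3% of values came out as whole reads, so count models were not used.

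log2(value + 1) was fitted with limma 3.58.1 in R 4.3.3: 1 mean per group, 18 libraries, 14 residual degrees of freedom, variance trend, two-sided contrast, Benjamini-Hochberg over the 9437 genes at 10 or more in at least 4 libraries, threshold 0.05. This scale understates changes of low genes. Named were Dock2, all genes past the threshold (up to 15 in each direction), further genes by unadjusted p up to 12 in each direction with a mean of at least 20, and the lowest and highest member of each gene list. Unnamed gene models, pseudogenes and variable, diversity and joining segments of receptors were left out of the genes named by rank. Other list members are named by their unadjusted p under 0.05, which 3.04% of all genes passed as lower and 2.17% as higher. The members and the 32 gene lists were chosen with earlier results of these data known. List counts and medians are descriptions without a test. Coordinates are from GENCODE M21 (same build). The fit was tested on simulated data. Alternatives concerned the pseudocount, filter, scaling, variance model, replicate block, sex and left-out libraries.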

Additional observations from a re-analysis of the deposited data

Results flagged for a closer look

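The memory minus naive difference itself differed between genotypes by the interaction test for Tbx21 (-3.29), Trdc (-3.16) and Tmie (2.82).

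Among 322 sets of 1 gene in 1 group, 21 (6.52%) held a library set apart from the others of its group by Dixon's test, where chance gives about 5%. Wild-type memory library 4 accounted for 6 of them. Its value was 0 for Klra8 (others 3.55 to 4.81), 13.1 for Nr4a3 (19.3 to 20.2), 16.6 for Ier3 (5.67 to 6.63), 8.74 for Tyk2 (63.2 to 89.4), 13.1 for Klre1 (33.4 to 34.0) and 0 for Itgax (5.80 to 7.83). Also in wild-type memory, Cxcr3 was 249 in library 1 (291 to 300 in the others) and Itgam 15.4 in library 3 (4.5 to 5.23).

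In wild-type naive libraries, Fcer1g was 1.81 in library 2 and 0 in the others, and in library 3 Gzmm was 2.79 and Hbb-bs 0.852 where the others were at 0. In library 4, Mcm2 was 83.5 (others 62.2 to 64.3) and mt-Co3 548 (others 0.279 to 0.633). In Dock2-deficient naive libraries, mt-Nd3 was 0 in library 1 (others 34.6 to 151), Eif5b 58.2 in library 2 (39.8 to 43.1) and Cd7 135 in library 3 (195 to 219).

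In Dock2-deficient memory libraries, Eno3 was 39.1 in library 1 (others 10.3 to 13.6), Klra8 22.6 in library 2 (55.3 to 79.0) and Rps12 0.885 in library 4 (others 1230 to 3170). In library 5, Nlrc5 was 74.3 (239 to 329) and mt-Co3 514 (0.0596 to 0.580).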

How the results depend on the processing

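The count of 3 genes past the threshold became 0 with no filter, voom weights, the replicate block or without the 2 libraries that lay apart, 1 (Tbx21) with a mean of at least 50, 1 (mt-Nd3) with sex terms, 5 with array weights and 9 with no variance trend, and 0 to 2 with a library left out. At an unadjusted p under 0.05 the 492 genes became 1005 with no filter, 207 with a mean of at least 50, 779 with array weights and 358 to 851 with a library left out (764 without wild-type naive library 1, 851 without Dock2-deficient memory library 4). With 0 called there were 468 with voom weights, 473 with the block and 337 without both libraries. Scaling to the total moved the median of all genes to -0.26 and the share below 0 from 49.5% to 67.7%, and called Trdc and Cd163l1.

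The labels do not say that a replicate number marks a shared animal, and not every pair was correlated above 0.1, so the numbers were not used as pairs: of 9 same-numbered naive and memory pairs, 3 had deviations correlated above 0.1 (-0.253 to 0.303), and 4 of 9 naive libraries correlated best with their own number. Among Dock2-deficient libraries, number 1 read as female and the others as male in both states, and numbers 4 and 5 had the lowest medians of immediate early genes in both. With the replicate block 0 genes passed (limma, adjusted p = 0.146 for Tbx21 and for Trdc, 0.36 for Tmie).

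Over 82 named genes, 2380 of 2505 gene values, which include linear-scale values without a test, kept sign and side of the threshold. On the log2 scale 43 in 12 genes turned sign, none of them among the 24 named by rank. On the linear scale 3 of the 12 lower genes named by rank (Cxcr3, Cd163l1 and Ccl5) turned sign, and 0 of the 12 higher ones. With sex terms Nr4a3 was 0.0389, Rgs2 -0.91, Pfkl 0.20, Rps12 1.59 and Cxcr6 0.13. With array weights Tyk2 was -0.0555, Rps12 0.63, Gimap7 0.036, Ctss 0.28 and Hbb-bs 0.36. With 10 added before the logarithm Rps12 was 0.40 and Ctss 0.000367. Scaling to the total gave -0.17 for Gata3 and -0.14 for Ighm, trimmed mean scaling 0.0109 and voom weights 0.00218 for Ctss. Without both libraries that lay apart Tyk2 was -0.0100, Ighm -0.11 and Ctss 0.0594. With a library left out Tyk2 ranged from -0.14 to 0.935, Rps12 from -0.73 to 1.95, Gata3 from -0.0722 to 0.324, Igkc from -1.87 to 0.259, Ighm from -0.0174 to 0.319, Ctss from -0.149 to 0.177 and Hbb-bs from -1.62 to 0.0633.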

Other observations

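Several genes were split between libraries near 0 and libraries far above it within a group. mt-Co3 was below 1 in 10 libraries and 311.4 to 1311 in the other 8, with 3 of 4 wild-type naive, 1 of 4 wild-type memory, 2 of 5 Dock2-deficient naive and 4 of 5 Dock2-deficient memory libraries near 0. Its interaction of -7.73 ± 3.38 (SE; limma, adjusted p = 0.819) did not pass. Rps12 was below 1 in 1 library and 345 to 3174 in the other 17. mt-Nd3, the gene called with sex terms, was 0 in Dock2-deficient naive library 1, the female library on which that fit rests. Expected counts share reads between similar sequences as estimates, and the part of that sharing in mt-Co3, mt-Nd3 and Rps12 was not tested.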
